A study of Mus musculus with 18 samples.

Results

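Orbital cortex of newborn mice was compared between RXRg, RARb double mutants (dKO) and controls in 6 RNA-seq libraries, 3 of each genotype, out of 18 libraries in the whole series. The 6 libraries were those whose brain region was labelled Orbital, and the other 12 came from medial and dorsal frontal tissue of the same genotypes. All tissue was taken at postnatal day 0. The dKO animals carried mutations of both receptor genes and the comparison group was labelled control. The labels do not give the altered exons, the control genotype, the strain, the sex or the litter. They also do not say whether libraries came from separate animals, so a p-value reflects the variation among these libraries, which may be technical. By title prefix and index sequences each control is set beside 1 dKO library, in set A, set B and set C (replicates 1, 2 and 3). No label says that libraries of a set share an animal or a litter, and differences within sets are descriptions, not pairs in the test. Set A has the title prefix RAR, and sets B and C have the prefix RXR.

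Rarb and Rxrg encode retinoic acid receptor beta and retinoid X receptor gamma. Retinoic acid is made from vitamin A by retinaldehyde dehydrogenases, in the developing forebrain to a large extent in the meninges, and is carried to the nucleus by binding proteins such as CRABP2. There it binds pairs of an RAR and an RXR, which sit on DNA at direct repeats of a short element and switch nearby genes on or off. The orbital cortex is the ventral part of the frontal cortex above the eyes, next to the olfactory bulb and its tract, and serves the valuation of rewards in the adult.

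The 6 libraries held 30814407 to 91836786 fragments assigned to genes, with set A the deepest (91836786 in its control and 52788115 in its dKO library). Levels are given as CPM, counts per 1000000 fragments of the library size scaled by the trimmed mean of M-values (TMM). The label of cortex was met by its defining markers in every library: Tbr1 ranged from 164 to 322 CPM, Neurod6 from 916 to 1488 CPM, Slc17a7 from 18.5 to 48.2 CPM and Emx1 from 5.10 to 9.09 CPM. In a principal component analysis of the most variable genes the control of set B stood apart, at -64.46 on the leading component (35.1% of the variance) against -1.07 to 26.35 for the other 5 libraries. Xist, transcribed from the inactive X, was at 28.9 CPM in dKO of set A and 11.8 CPM in dKO of set C, against 0 to 0.0601 CPM in the remaining 4 libraries, and Ddx3y of the Y chromosome was the reverse. Sets A and C thus set female dKO against male control tissue, and only set B compared male with male.

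Transcripts of both mutated genes were still counted in dKO tissue, at a lower mean level. Rarb (ENSMUSG00000017491, GRCm38 chr14:16430839-16819156, minus strand) was at 7.42, 12.98 and 6.13 CPM in the controls of sets A, B and C and at 4.47, 3.13 and 2.31 CPM in the dKO libraries. All 3 dKO libraries lay below all 3 controls, and the log2 fold change was -1.44 (SE 0.365, edgeR quasi-likelihood test, adjusted p = 0.148). DESeq2 gave an adjusted p of 0.0193 for Rarb, the only one of 18 alternatives in which it passed. Rxrg (ENSMUSG00000015843, chr1:167598384-167639623, plus strand) was at 2.36, 19.95 and 3.96 CPM in controls and at 2.67, 1.595 and 0.412 CPM in dKO. The groups of Rxrg overlapped, since in set A the dKO library was the higher one, and its log2 fold change of -2.12 had an SE of 1.01 (edgeR adjusted p = 0.361). The high control of Rxrg was the library of set B that stood apart. Counts cover whole genes, so a truncated transcript and an intact one cannot be told apart here.

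The promoter of Rarb is shown because it carries a retinoic acid response element and because Rarb is thereby a known target of its own pathway. The 250 bases upstream of the RefSeq start (GRCm38.p6, chr14:16575477-16575726, minus strand) hold a pair of 6-base elements 5 bases apart, printed in capitals.
Rarb: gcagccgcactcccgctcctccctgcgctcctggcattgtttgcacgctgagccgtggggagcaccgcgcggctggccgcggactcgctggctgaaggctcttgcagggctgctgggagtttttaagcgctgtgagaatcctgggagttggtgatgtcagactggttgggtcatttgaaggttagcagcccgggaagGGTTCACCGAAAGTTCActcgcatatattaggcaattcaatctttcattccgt
The search took exact matches of the element AGGTCA, or of its variants AGTTCA as well as GGTTCA as well as GGGTCA, in direct repeat with 1, 2 or 5 bases between them, on both strands. The variants GGTTCA as well as GGGTCA were added once the Rarb window had been read, so this match is a description. Such a repeat lay in 140 of 32851 mouse promoter windows of this length (0.426%), and the form with 5 bases between in 29 (0.0883%).

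Of 18730 genes tested, 7 passed an adjusted p of 0.05 (0.0374%), 5 of them higher (0.0267%) and 2 lower (0.0107%) in dKO. The 6 described here were the serine protease gene Prss56, which fell, the teneurin gene Tenm4, which rose, and 4 predicted genes, which rose. An unadjusted p under 0.05 was reached by 2605 genes (13.9%), 1116 higher (5.96%) and 1489 lower (7.95%). Without the control of set B that stood apart, edgeR called 5 genes, 3 higher and 2 lower, of which 3 were among the 7. DESeq2 on the same 18 libraries called 430 genes (2.3%), 219 higher (1.17%) and 211 lower (1.13%), among them all 7. The differences within sets A, B and C had the same sign in 7092 genes (37.9%).

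Prss56, which encodes a secreted trypsin-like protease, had the largest drop among genes past the test. It was at 46.5, 6.91 and 2.55 CPM in the controls of sets A, B and C and at 0.0874, 0.0957 and 0.222 CPM in dKO. These levels rested on 4260, 228 and 85 fragments in controls and on 5, 3 and 7 in dKO. All dKO libraries lay far below all controls, while the controls themselves spread widely, with set A far above the others (18.7 ± 24.2 CPM, SD, n = 3). The log2 fold change was -6.34 (SE 0.963, edgeR quasi-likelihood test, adjusted p = 0.0224). In the 12 medial and dorsal libraries of either genotype Prss56 reached at most 0.440 CPM. The call was lost without control replicate 1 (adjusted p = 0.123), control replicate 2 (0.0714), dKO replicate 1 (0.117) or dKO replicate 2 (0.168), with a log2 fold change between -7.79 and -4.86 over all 6 single omissions. Within the libraries titled RXR alone (sets B and C) the log2 fold change was -4.86 with an adjusted p of 0.256. The call was also lost with sex as a covariate (adjusted p = 0.0824), without the title prefix (0.119) and on the 6 orbital libraries alone, without (0.360) or with the replicate block (0.143).

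The promoter of Prss56 is shown as that of the gene with this drop, so that it can be read against the Rarb window. It lies at GRCm38.p6 chr1:87183064-87183313 on the plus strand, just upstream of the gene (ENSMUSG00000036480, GRCm38 chr1:87183313-87188405), and holds none of the 4 elements, alone or repeated, so it is printed without capitals.
Prss56: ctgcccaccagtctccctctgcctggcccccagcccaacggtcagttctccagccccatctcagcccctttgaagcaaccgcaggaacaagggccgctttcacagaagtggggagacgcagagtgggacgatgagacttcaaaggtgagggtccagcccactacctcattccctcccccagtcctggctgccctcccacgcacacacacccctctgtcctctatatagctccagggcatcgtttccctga
A single copy of any of the 4 elements occurred in 38.6% of the 32851 windows. Among the 15 genes with the lowest p in each direction, promoter windows were given for 11 of those higher and 13 of those lower in dKO, and 0 of them held a direct repeat. Over all genes tested, 40 of 12687 with a window did (0.315%).

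Other genes that were high in the same orbital controls had the same order of libraries. Zpld1, which encodes a zona pellucida domain protein found in the inner ear, was at 15.8, 8.04 and 0.691 CPM in controls and at 0.315, 0.159 and 0 CPM in dKO. Its control of set C was close to its dKO libraries, and its log2 fold change of -5.57 (SE 0.963) missed the threshold (edgeR adjusted p = 0.0579). Mybpc1, a myosin-binding protein gene, was at 24.8, 9.70 and 1.29 CPM in controls and at 0.122, 0.191 and 0.348 CPM in dKO, a log2 fold change of -5.58 (SE 1.28, edgeR adjusted p = 0.146). In both genes the control of set A was highest and that of set C lowest, as for Prss56.

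Likeness to Prss56 was measured as Pearson's r of log2 CPM over the 18 libraries, which share depth, set and region and include the orbital controls that define the pattern. Mybpc1 had an r of 0.879, Chodl, a membrane protein of the C-type lectin family, 0.873, and the monooxygenase gene Cyp2j6 0.852. Fmo1 and Cyp4f16, which also encode monooxygenases, had 0.85 each, and the interferon regulatory factor gene Irf9 had 0.848. Chodl was at 11.7, 5.73 and 3.18 CPM in controls and at 1.57, 0.446 and 1.04 CPM in dKO. Cyp2j6 was even within groups, at 31.9, 33.9 and 31.7 CPM in controls, while dKO tissue held 17.6 ± 0.529 CPM (SD, n = 3). Foxd3, a transcription factor gene of neural crest and its glia, was below the filter on low counts, with 197, 21 and 1 fragments in controls and 0 in each dKO library.

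The ensheathing glia that wrap olfactory axons share several of these genes, so their marker list was read as a whole. Prss56 and Mybpc1 are themselves members, so the counts of the list are not independent of the genes that led to it. Of 17 members tested, 15 had a negative log2 fold change and 2 a positive one, with a median of -0.84 against -0.03 over all genes tested. In 8 members all dKO libraries lay below all controls, as they did for 1597 of all genes tested (8.53%), while the reverse held for 1014 (5.41%). The summed level of the list was 1120 to 1245 CPM in controls and 797 to 841 CPM in dKO. Npy, a neuropeptide gene, was at 143, 141 and 167 CPM in controls and 69.3, 106 and 107 CPM in dKO (log2 fold change -0.71, SE 0.211, edgeR adjusted p = 0.181). S100b was at 3.76, 5.31 and 5.25 CPM in controls and 1.47, 1.08 and 1.46 CPM in dKO (log2 fold change -1.76, SE 0.526, edgeR adjusted p = 0.181). Npy is also on the interneuron list and S100b on the astrocyte list. Fabp7, also on the radial glia list, is among the 8 members and makes up a large part of the summed level. It was at 507.6, 551.5 and 636.9 CPM in controls and at 485, 419 and 298.5 CPM in dKO. Sox10 had a log2 fold change of -0.64 (edgeR adjusted p = 0.390), and the 2 positive members were Fbln2 (0.03) and Gfra1 (0.40). Apod, a lipid carrier gene also on the list, was at 174, 187 and 211 CPM in controls and at 163, 133 and 262 CPM in dKO, where the groups overlapped. In such tissue samples fewer cells of a type and less RNA per cell cannot be told apart, and the part of dissection in these values was not tested.

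**Figure D1:**
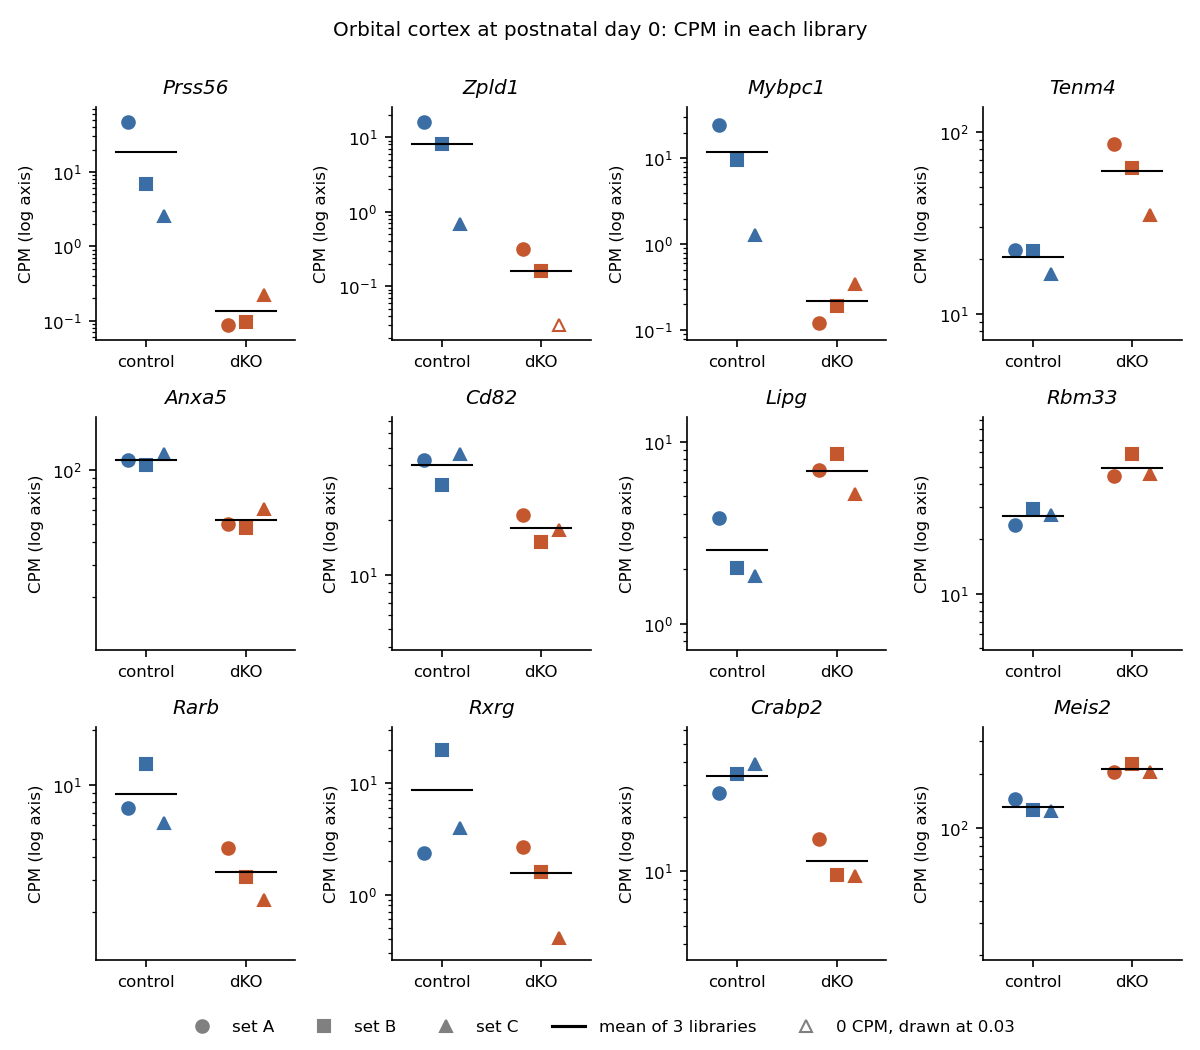
CPM (log axes) of 12 genes in each orbital library, with control libraries in blue, dKO libraries in orange, the set as the marker shape and the mean of 3 libraries as a line. Prss56, Zpld1 and Mybpc1 spread over more than an order of magnitude among controls, whereas Anxa5 (105 to 122 CPM in controls, 47.4 to 60.4 CPM in dKO) and Meis2 (124 to 145 CPM and 203 to 225 CPM) were tight within each group.

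Tenm4 rose in dKO. It encodes teneurin-4, a large transmembrane protein that binds latrophilins and other teneurins across cell contacts. Tenm4 (chr7:96171246-96911093, plus strand) was at 22.3, 22.2 and 16.6 CPM in controls and at 85.5, 63.0 and 35.1 CPM in dKO. Every dKO library was above every control, with a log2 fold change of 1.54 (SE 0.258, edgeR quasi-likelihood test, adjusted p = 0.0490). The difference within sets was 1.94, 1.502 and 1.08 on the log2 CPM scale for A, B and C. The call was lost in 12 of 18 alternatives, among them leaving out any one orbital library but dKO replicate 3 (adjusted p 0.0652 to 0.389) and the fit of autosomal genes only (0.0552). On the 6 orbital libraries alone the edgeR adjusted p was 0.548, and with the replicate block 0.143. With a trend in gene length removed, the log2 fold change of Tenm4 was 1.07 (edgeR adjusted p = 0.112).

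Partners of Tenm4 were read from a list of 10 teneurins, FLRT proteins and latrophilins, adhesion molecules that bind one another between axons and their targets. Of these, 9 had a positive log2 fold change, with a median of 0.74 (sets A, B and C 1.03, 0.55 and 0.96), and Tenm4 alone passed the test. Flrt2, which encodes a ligand of latrophilins and UNC5 receptors, was at 133, 114 and 70.9 CPM in controls and 264, 218 and 134 CPM in dKO. Within each set the dKO library held close to double the level, although the groups touched, with 132.7 CPM in the control of set A and 133.5 CPM in the dKO library of set C (log2 fold change 0.95, SE 0.218, edgeR adjusted p = 0.136). Tenm2 was at 33.2, 25.9 and 18.4 CPM in controls and 118, 61.0 and 37.2 CPM in dKO (log2 fold change 1.40, SE 0.396, edgeR adjusted p = 0.166). Tenm3 was at 25.8, 42.9 and 19.3 CPM in controls and 87.1, 91.1 and 39.1 CPM in dKO, with groups that overlapped. Members of the list had a median exon length of 10860 bases, and the longest genes as a whole had a positive median, as given below.

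The 4 predicted genes were almost silent in orbital controls. Gm6356 (chr14:6965449-6973818) was at 0, 0.0303 and 0 CPM in controls and at 14.4, 34.4 and 55.8 CPM in dKO, a log2 fold change of 11.55 that depends on the prior count (edgeR adjusted p = 5.42e-08). Gm10704, a processed pseudogene (chr3:88576410-88577139), was at 0.0983, 0.212 and 0.210 CPM in controls and 3.58, 7.43 and 8.52 CPM in dKO (log2 fold change 5.21, SE 0.485, edgeR adjusted p = 8.57e-05). Gm10340 (chr14:3133997-3141609) had 1, 0 and 0 fragments in controls and 29, 41 and 55 in dKO, and Gm3373 (chr14:5718336-5741577) had 2, 3 and 2 against 35, 39 and 85. Their edgeR adjusted p-values were 0.00782 and 0.0136. The call of Gm3373 was lost without control replicate 1 (adjusted p = 0.0839), control replicate 2 (0.0534), control replicate 3 (0.0767) or dKO replicate 3 (0.0669). All 4 were separated in the same direction in every set, and their values in medial and dorsal tissue were also positive. The log2 fold changes there were 13.26 and 9.98 for Gm6356, 5.96 and 5.31 for Gm10704, 7.005 and 6.37 for Gm10340 and 6.08 and 5.28 for Gm3373, against 6.70 for Gm10340 and 4.65 for Gm3373 in orbital tissue. No option for reads with several alignments is recorded, and genes of this kind can share reads with near-identical copies, so their values are uncertain.

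Gm6356 lies within 10 Mb of the mutated gene Rarb, the only called gene of 104 tested in that window. In the window 17 genes (16.35%) reached an unadjusted p under 0.05, against 13.9% of all genes tested. Around Rxrg 186 genes were tested, 0 were called and 33 (17.74%) reached an unadjusted p under 0.05. On the whole of chromosome 14, which holds Rarb, 3 of 661 genes tested were called, against 7 of 18730 over all genes (0.0374%). These were Gm6356 and, outside the window, Gm10340 and Gm3373. On chromosome 1, which holds Rxrg, 1 of 1215 was called, Prss56.

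Below the threshold, 5 genes shared an adjusted p of 0.0579, Zpld1 among them. Anxa5, which encodes a calcium-dependent phospholipid-binding protein, was at 113, 105 and 122 CPM in controls and at 50.2, 47.4 and 60.4 CPM in dKO. The groups were far apart relative to their spread (113 ± 8.05 and 52.7 ± 6.79 CPM, SD, n = 3), with a log2 fold change of -1.10 (SE 0.192, edgeR adjusted p = 0.0579). Cd82, a tetraspanin gene, was at 42.7, 31.1 and 46.0 CPM in controls and at 21.3, 15.1 and 17.6 CPM in dKO (log2 fold change -1.16, SE 0.206). Lipg, the gene of endothelial lipase, was at 3.79, 2.03 and 1.83 CPM in controls and at 6.96, 8.55 and 5.13 CPM in dKO (1.498, SE 0.266). Ddx3x, an RNA helicase gene that escapes X inactivation, was at 251, 234 and 170 CPM in controls and at 406, 581 and 447 CPM in dKO (1.12, SE 0.198). The male dKO library of set B had the highest level of Ddx3x. Of a list of 7 genes, made of Xist and genes that escape X inactivation, 6 were positive, with a median log2 fold change of 0.76. Within set B, where both pups were male, the median of 0.00 was the value of Xist, at 0 CPM in both libraries. Ddx3x, Eif2s3x and 5530601H04Rik had differences of 1.31, 0.40 and 0.69 there, and the remaining members lay at or below 0. Rbm33, which encodes an RNA-binding protein, was at 23.9, 29.1 and 26.97 CPM in controls and 44.2, 58.5 and 45.4 CPM in dKO, a log2 fold change of 0.89 (SE 0.160, edgeR adjusted p = 0.0617). All 5 of Anxa5, Cd82, Lipg, Ddx3x and Rbm33 had groups that did not overlap and passed with DESeq2, with adjusted p-values of 3.72e-05 to 0.000265.

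Olfml3, Slc38a5, Ctsc and Krt19 came further down the order of p-values on the lower side. Olfml3, a secreted matrix protein gene, was at 28.1, 35.2 and 29.4 CPM in controls and 15.03, 13.5 and 17.9 CPM in dKO (log2 fold change -0.997, SE 0.184, edgeR adjusted p = 0.0712). The amino acid transporter gene Slc38a5 was at 51.7, 44.2 and 48.9 CPM in controls, while dKO tissue held 20.2 ± 5.28 CPM (SD, n = 3) (edgeR adjusted p = 0.115). Ctsc, the gene of the lysosomal protease cathepsin C, was at 34.0, 34.3 and 39.4 CPM in controls and 19.9, 16.6 and 18.7 CPM in dKO (edgeR adjusted p = 0.122). Each of these genes had controls within a narrow range, above all dKO libraries. Krt19, a keratin gene, was at 2.74, 4.91 and 5.83 CPM in controls and 0.909, 0.733 and 0.823 CPM in dKO (log2 fold change -2.335, SE 0.489, edgeR adjusted p = 0.129).

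On the higher side, Lhx2, a homeobox gene that sets cortical fate in progenitors, was at 17.1, 21.4 and 17.1 CPM in controls and 37.3, 55.5 and 31.2 CPM in dKO (log2 fold change 1.15, SE 0.242, edgeR adjusted p = 0.129). Ankrd6, the mouse counterpart of the planar polarity gene diversin, was at 45.8, 29.8 and 40.7 CPM in controls and 77.5, 73.2 and 59.3 CPM in dKO (0.86, SE 0.177, edgeR adjusted p = 0.125). Acvr2a, an activin receptor gene, was at 65.3, 84.7 and 61.6 CPM in controls and 109, 118 and 110 CPM in dKO (0.67, SE 0.149, edgeR adjusted p = 0.133). Kcnn2, a calcium-activated potassium channel gene, was at 7.72, 6.004 and 8.14 CPM in controls and 15.9, 14.8 and 10.3 CPM in dKO. None of these genes had overlapping groups, and none passed the edgeR test.

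The retinoic acid pathway had 0 members past the test in orbital cortex, and most of its genes had negative values. Of 6 receptor genes tested, all 6 were negative, with a median log2 fold change of -0.81. Beyond the mutated pair, Rarg was at 8.50, 7.55 and 9.22 CPM in controls and 5.70, 2.62 and 4.43 CPM in dKO (-0.97, SE 0.345, edgeR adjusted p = 0.232), and Rara and Rxrb had log2 fold changes of -0.18 and -0.12. Rxra was at 23.1, 33.7 and 25.9 CPM in controls and 8.28, 27.6 and 26.3 CPM in dKO, so that its mean difference lay mainly in the dKO library of set A.

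Genes that make and carry retinoic acid were read next. Of 9 synthesis genes tested, 7 were negative and 2 positive (median -0.23, with set B at 0.11). Aldh1a1, a retinaldehyde dehydrogenase gene, was at 3.78, 4.03 and 9.64 CPM in controls and 1.21, 2.84 and 3.67 CPM in dKO. Dhrs3, whose enzyme returns retinaldehyde to retinol, was at 22.4, 26.5 and 43.9 CPM in controls and 19.6, 17.8 and 22.3 CPM in dKO. Both genes had dKO libraries below all controls, though by little for Dhrs3, and edgeR adjusted p-values of 0.281 and 0.323. Of 8 binding and uptake genes, 7 were negative (median -0.51). Crabp2, which delivers retinoic acid to its receptors, was at 26.9, 34.2 and 38.8 CPM in controls and 15.1, 9.57 and 9.47 CPM in dKO, a log2 fold change of -1.53 (SE 0.424, edgeR adjusted p = 0.162). Stra6, the receptor that takes up retinol, was at 78.4, 85.7 and 103 CPM in controls and 37.1, 44.8 and 44.5 CPM in dKO (-1.08, SE 0.393, edgeR adjusted p = 0.243). Crabp2 and Stra6 are also expressed in the meninges, whose markers were lower in the same libraries, as given below.

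Of 12 genes known to respond to retinoic acid, 9 were negative and 3 positive, with a median of -0.63. The degrading enzyme gene Cyp26b1 was at 45.1, 24.3 and 23.9 CPM in controls and 21.6, 26.02 and 10.3 CPM in dKO, with overlap between the groups. Cbln2, a secreted synapse organizer of prefrontal cortex, was at 397, 210 and 317 CPM in controls and 227, 116 and 144 CPM in dKO. It was lower in dKO in each set, yet the dKO library of set A exceeded the control of set B (log2 fold change -0.96, edgeR adjusted p = 0.410). The positive genes were Meis1, Meis2 and Nrip1. Meis2, a homeobox gene, was at 145, 126 and 124 CPM in controls and 203, 225 and 203 CPM in dKO (0.69, SE 0.174, edgeR adjusted p = 0.148), with no overlap. Nrip1, the gene of a corepressor of nuclear receptors, was at 287, 177 and 133 CPM in controls and 429, 388 and 255 CPM in dKO (0.88, SE 0.218, edgeR adjusted p = 0.148).

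Markers of the meninges, which cover the orbital surface and can be taken with it, were at lower levels in dKO tissue. All 20 tested markers of meningeal fibroblasts were negative, with a median log2 fold change of -0.72, 0 past the test and 9 with dKO libraries below all controls (8.53% of all genes tested). Their summed level was 2391 to 3025 CPM in controls and 1214 to 1934 CPM in dKO. Foxd1, a forkhead transcription factor gene, was at 16.9, 21.4 and 24.1 CPM in controls and 5.61, 6.92 and 9.53 CPM in dKO (-1.53, SE 0.391, edgeR adjusted p = 0.1505). Foxc1, needed for meningeal development, was at 50.5, 66.9 and 78.0 CPM in controls and 26.2, 24.4 and 45.1 CPM in dKO (-1.02, SE 0.286, edgeR adjusted p = 0.166). The collagen gene Col1a1 was at 491, 504.2 and 478 CPM in controls and 396, 156 and 288 CPM in dKO. The list differed most in set B, whose median was -1.34, against -0.37 in set A and -0.71 in set C. Crabp2 is itself on this list and among the 9, and Aldh1a2 of the synthesis genes is on it too, so the list is not independent of them. The part of the meninges in the values of Crabp2 and Stra6 was not tested.

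Microglial markers had the same direction. All 16 were negative (median -0.65), 0 passed the test, and their summed level was 430 to 567 CPM in controls and 252 to 366 CPM in dKO. Cd68, a lysosomal protein gene of phagocytes, was at 13.6, 21.1 and 25.6 CPM in controls and 10.2, 9.15 and 9.12 CPM in dKO (-1.03, SE 0.268, edgeR adjusted p = 0.152). Tmem119, a marker of resident microglia, was at 33.1, 24.02 and 30.3 CPM in controls and 14.3, 13.6 and 21.1 CPM in dKO (-0.87, SE 0.265, edgeR adjusted p = 0.188). Vascular markers were mixed, with 11 of 16 negative, a median of -0.11 and, for the endothelial junction gene Cldn5, 75.5, 56.3 and 71.3 CPM in controls against 59.6, 51.5 and 57.4 CPM in dKO. Markers of striatal projection neurons, which lie deep to the orbital cortex, had 10 of 18 negative. Olfactory bulb markers had 6 of 12 negative, interneuron markers 9 of 20 and astrocyte markers 8 of 18.

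Annexins and tetraspanins were listed after Anxa5 and Cd82 had been seen, so their count is not independent of those genes. Of 18 tested, 15 were negative (median -0.54), 0 passed the test, and in 11 all dKO libraries lay below all controls (8.53% of all genes tested). Anxa3 was at 38.3, 68.8 and 42.6 CPM in controls and 24.01, 7.21 and 9.66 CPM in dKO (-2.03, SE 0.546, edgeR adjusted p = 0.157). Anxa6 was at 153, 133 and 132 CPM in controls and 103, 62.5 and 77.9 CPM in dKO (-0.79, SE 0.229, edgeR adjusted p = 0.169). Many of these proteins are abundant in meningeal, vascular and immune cells.

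Guidance and adhesion genes were mostly positive. Of 28 semaphorins, plexins and neuropilins, 21 were positive (median 0.30), of 19 netrin, slit and robo genes 14 (0.40), and of 25 cadherins and protocadherins 21 (0.39), against 47.5% of all genes tested. Their median exon lengths were 7800, 7669 and 8066 bases. Of protein-coding genes in the 2 longest of 5 length groups (medians 6082 and 9775 bases), 53.4% and 68.0% were positive. Among these lists 0 members passed the test. Sema5b, a repulsive guidance cue, was at 19.4, 18.1 and 24.2 CPM in controls and 46.4, 56.2 and 46.5 CPM in dKO (1.27, SE 0.311, edgeR adjusted p = 0.148). Cdh2, the gene of N-cadherin, was at 238, 212 and 170 CPM in controls and 309, 407 and 290 CPM in dKO (0.70, SE 0.170, edgeR adjusted p = 0.148). Pcdh8 was at 121, 80.6 and 102 CPM in controls and 161, 177 and 170 CPM in dKO (0.74, SE 0.192, edgeR adjusted p = 0.152). The groups of Sema5b, Cdh2 and Pcdh8 did not overlap. Dcc, the netrin receptor gene, ranged from 1.98 to 20.04 CPM in controls and from 12.3 to 48.3 CPM in dKO, with overlap. Of 20 Eph and ephrin genes only 9 were positive (median -0.05), though Epha4 was at 44.9, 57.1 and 27.6 CPM in controls and 100.0, 128 and 53.4 CPM in dKO (1.12, SE 0.325, edgeR adjusted p = 0.169).

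Genes of synapses showed smaller differences. Synaptic organizers had 22 of 29 positive (median 0.17), glutamate receptors and their scaffolds 25 of 37 (0.15) and presynaptic release genes 14 of 26 (0.08), and 0 passed. Ptprs, a receptor phosphatase that organizes presynaptic sites, was at 614, 635 and 378 CPM in controls and 1085, 1047 and 758 CPM in dKO (0.83, SE 0.206, edgeR adjusted p = 0.148). Its groups did not overlap, but the control of set C was low against the others. The vesicular glutamate transporter gene Slc17a7 was at 33.2, 46.9 and 48.2 CPM in controls and 37.4, 18.5 and 26.3 CPM in dKO, lower in sets B and C only.

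Of the cortical layer and progenitor markers 0 passed the test. Upper layer genes had 11 of 16 positive (median 0.28) and deep layer genes 10 of 18 (0.13). Cux1 of the upper layers was at 149, 155 and 149 CPM in controls and 165, 218 and 195 CPM in dKO (0.34, SE 0.153, edgeR adjusted p = 0.334), and Etv1 of layer 5 was at 32.1, 40.4 and 32.8 CPM in controls and 69.8, 54.2 and 40.6 CPM in dKO. Progenitor markers had 14 of 19 positive (median 0.45, with 0.72, 0.55 and 0.03 in sets A, B and C). All dKO libraries lay above all controls in 2 members (5.41% of all genes tested) and below them in 2 (8.53%). The summed level overlapped, at 1364 to 1691 CPM in controls and 1198 to 1971 CPM in dKO. Fabp7 of radial glia was lower in dKO in each set (-0.50, SE 0.204, edgeR adjusted p = 0.294). Pax6, a transcription factor gene of radial glia, was at 4.47, 7.10 and 4.92 CPM in controls and 19.8, 14.6 and 7.31 CPM in dKO (1.27, SE 0.366, edgeR adjusted p = 0.169). Of 26 cell cycle genes 25 were positive, with a median of 0.57 (0.53, 0.48 and 0.66 in sets A, B and C) and 0 past the test. Bub1b, a kinase of the spindle checkpoint, was at 20.4, 10.3 and 9.10 CPM in controls and 29.4, 27.5 and 21.8 CPM in dKO (1.06, SE 0.2999, edgeR adjusted p = 0.166). The cell cycle list had higher medians in medial (1.49) and dorsal tissue (0.72).

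The nuclear and the mitochondrial genes of the respiratory chain lay on opposite sides of 0. All 32 nuclear genes of the respiratory chain were negative (median -0.37) and all 12 tested genes of the mitochondrial genome were positive (0.47), with 0 past the test in either list. In 7 of the nuclear genes all dKO libraries lay below all controls (8.53% of all genes tested). The groups overlapped in all 12 mitochondrial genes, whose summed level was 4180 to 7769 CPM in controls and 4824 to 10940 CPM in dKO. Ndufa13 was at 104, 93.6 and 140 CPM in controls and 84.6, 63.0 and 86.4 CPM in dKO, and mt-Nd5 was at 254, 477 and 357 CPM in controls and 356, 794 and 552 CPM in dKO. Cholesterol synthesis genes had 18 of 22 negative (median -0.36), mostly in set A (-0.67, against -0.06 in set B and -0.05 in set C). Nsdhl, an enzyme gene late in this pathway, was at 76.8, 58.0 and 51.0 CPM in controls and 48.6, 35.3 and 36.9 CPM in dKO (-0.62, SE 0.181, edgeR adjusted p = 0.173).

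Without the control of set B the medians of the lists described most here had the same sign. They were -0.55 for meningeal fibroblasts, -0.70 for microglia, -1.20 for ensheathing glia, -0.68 for retinoic acid response genes, 0.64 for the cell cycle, 1.12 for the teneurin, FLRT and latrophilin list, -0.48 for the nuclear respiratory genes and 0.77 for those of the mitochondrial genome. Medians of the guidance lists were further from 0 without it, at 0.61 for semaphorins, plexins and neuropilins and 0.80 for netrin, slit and robo genes, and the cadherin and protocadherin list was at 0.57.

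**Figure D2:**
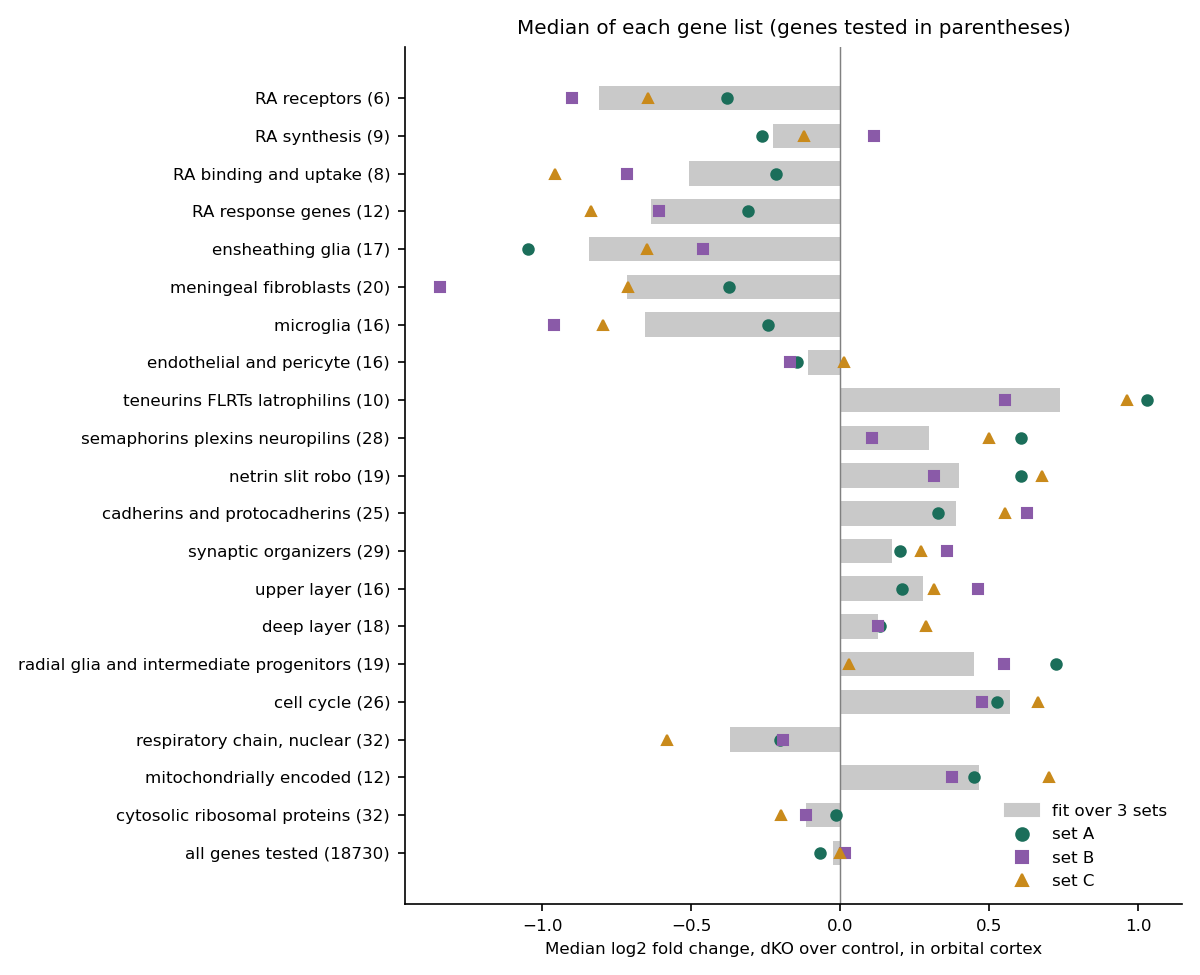
Median log2 fold change (dKO over control) of 20 gene lists and of all genes tested in orbital cortex, with the fitted value as a bar and the differences within sets A, B and C as markers. Lists of meningeal fibroblasts, microglia and ensheathing glia lay at -0.84 to -0.65 and the teneurin, FLRT and latrophilin list at 0.74, while all genes lay at -0.03.

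Gene length ran alongside these list values. Among 15064 protein-coding genes tested, split into 5 groups by exon length, the median log2 fold change went from -0.25 in the shortest group (median 1740 bases) through -0.14, -0.06 and 0.03 to 0.17 in the longest (median 9775 bases). The share of genes with a positive value went from 24.9% to 68.0%. Sets A and C had this trend most (from -0.23 to 0.26 and from -0.36 to 0.35), set B least (-0.12 to 0.03), and medial tissue had the opposite one (0.10 to -0.11). The nuclear respiratory genes were short (median 1316 bases) and had 4 of 32 members above the median of their own length group, whereas the teneurin list had 8 of 10, the cadherin list 20 of 25 and the cell cycle list 25 of 26 above it. The count above it was 19 of 28 for semaphorins, plexins and neuropilins, 14 of 19 for netrin, slit and robo genes and 22 of 37 for glutamate receptors and scaffolds. All 20 meningeal markers lay below the median of their length group, and 2 of 16 microglial markers lay above it. With the length trend removed in the fit, 4 of 40 list medians changed sign. These were glutamate receptors and scaffolds (-0.0016), astrocytes (-0.070), Cajal-Retzius cells (-0.0027) and cytosolic ribosomal proteins (0.0027). The part of length in each list's values was not tested beyond these counts and that fit.

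**Figure D3:**
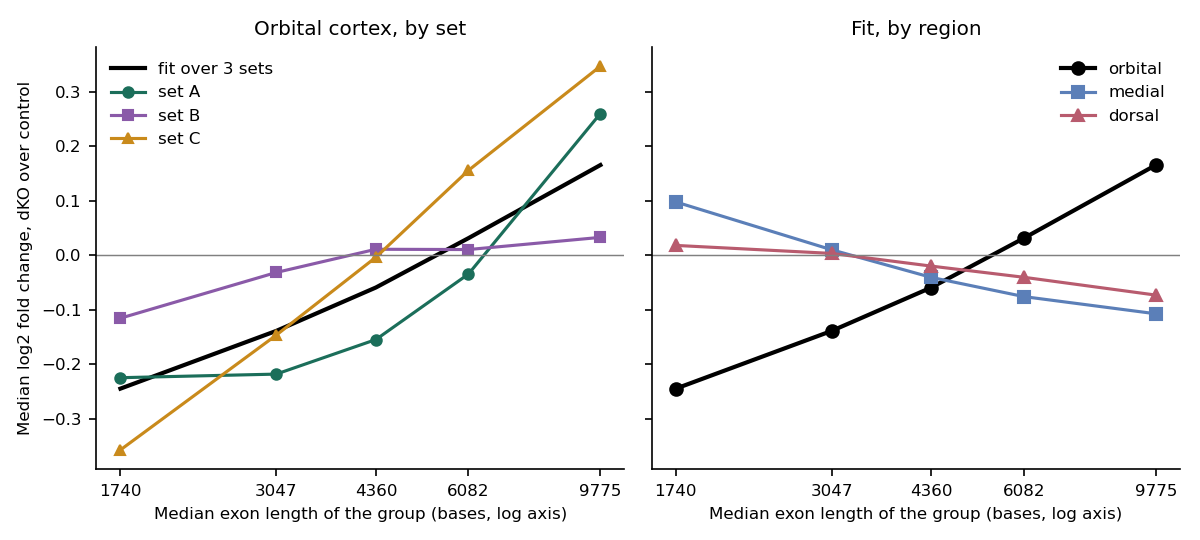
Median log2 fold change (dKO over control) of protein-coding genes in 5 groups by exon length (log axis), for orbital cortex by set on the left and for the 3 regions on the right. In orbital cortex the median goes from -0.25 to 0.17 with length, and in medial tissue from 0.10 to -0.11.

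To ask whether the orbital differences differed from those elsewhere, the dKO effect in orbital cortex was set against the mean of the medial and dorsal effects in a fit with the 3 libraries of a title prefix and index row as a block. Of 18730 genes, 201 differed (1.07%), 92 with the orbital effect higher (0.491%) and 109 lower (0.582%). Flrt2 differed by 1.46 (SE 0.194, edgeR adjusted p = 0.0236): its log2 fold change was 0.95 in orbital tissue, -0.55 in medial tissue and -0.49 in dorsal tissue. In levels, orbital controls averaged 106 ± 31.8 CPM of Flrt2 against 219 ± 26.9 CPM in medial and 122 ± 35.5 CPM in dorsal controls (SD, n = 3), while dKO tissue averaged 205, 154 and 88.0 CPM. Nrip1 differed by 1.33 (edgeR adjusted p = 0.0325) and Meis2 by 0.90 (edgeR adjusted p = 0.0366), both with negative values in the other regions.

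Of 8 binding and uptake genes of the retinoid pathway, 3 differed between regions, all with the orbital effect lower, and 5 did not pass. Crabp2 differed by -1.62 (SE 0.272, edgeR adjusted p = 0.0316). Orbital controls held 33.3 ± 5.996 CPM while the means of the other 5 groups of region and genotype lay between 11.4 and 12.45 CPM. Stra6 differed by -1.98 (edgeR adjusted p = 0.0480), with positive values in medial and dorsal tissue. Anxa5, Cd82 and Olfml3 differed by -1.05, -1.01 and -1.03 (edgeR adjusted p = 0.0429, 0.0350 and 0.0384), with log2 fold changes between -0.14 and 0.10 elsewhere. For Prss56 the difference did not pass (-6.96, SE 1.74, edgeR adjusted p = 0.0609), nor for Tenm4 (0.81, SE 0.262, edgeR adjusted p = 0.111), which was also positive in medial (0.77) and dorsal tissue (0.65). These calls depended on single libraries: without control replicate 2, dKO replicate 1 or dKO replicate 2 edgeR called 0 genes, with 3600, 2800 and 2211 at an unadjusted p under 0.05, without control replicate 1 or 3 it called 55 and 65, and without dKO replicate 3 it called 687.

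**Figure D4:**
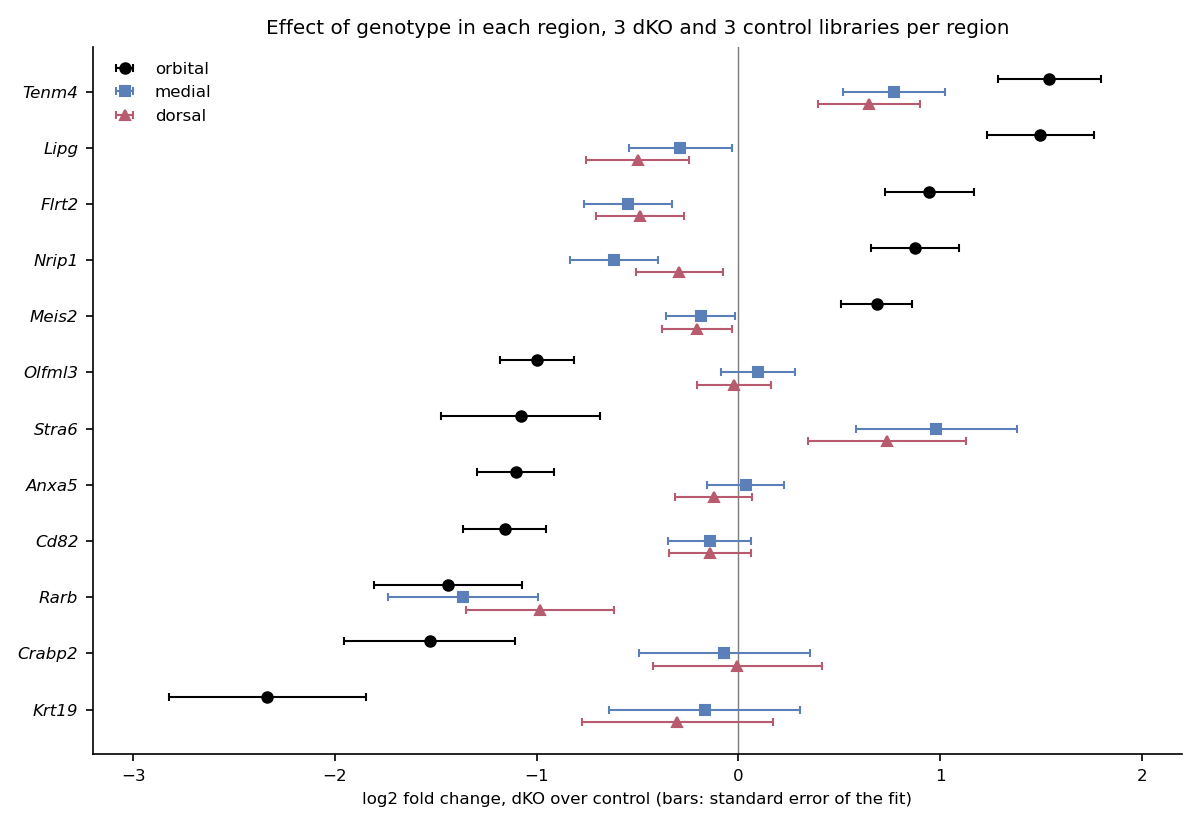
log2 fold change (dKO over control) with the standard error derived from the F statistic of the fit for 12 genes in orbital, medial and dorsal tissue, from 3 dKO and 3 control libraries per region. Rarb is negative in all 3 regions (-1.44, -1.37 and -0.98), whereas Crabp2 is at -1.53 in orbital tissue and at -0.07 and 0.00 in medial and dorsal tissue.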

How the data were processed

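Frozen tissue of newborn mice was dissected by the submitters, and SMART-seq v4 cDNA was sequenced as 100 bp pairs. Values in the deposited table are unnormalized fragment counts for each gene, made by the authors with featureCounts 1.6.2 in pairs and without strand on Ensembl 94 models of GRCm38, per the file headers; reads were aligned with STAR 2.6, per the submitters' processing notes. Columns of 18 libraries were matched to samples, and 6 columns matched to no sample were not used. Symbols were matched by Ensembl identifier for 54409 of 54532 genes.

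Counts were fitted in R 4.3.3 with edgeR 4.0.16 (TMM, filterByExpr at count 10 and total 15, quasi-likelihood F test, Benjamini-Hochberg threshold 0.05). The fit held all 18 libraries as 6 group means plus title prefix. Libraries of a row counted as independent in it. The SE of an edgeR log2 fold change was derived from the test, as its absolute value divided by the square root of the F statistic. Differences within sets used log2 CPM with a prior count of 2. DESeq2 1.42.0, limma 3.58.1 voom and other settings were alternatives. Of the alternatives, the restriction to autosomal genes, the removal of the length trend and the fit of RXR-titled libraries alone were chosen after seeing the data. On simulated data of 18249 genes the orbital fit recovered 33% of 2-fold and 87% of 4-fold changes, with 4 unchanged genes called, and the test between regions 12% and 70%, with 3. The simulated counts were independent between libraries and held no effect of row, set, sex or gene length. These shares therefore need not hold for the real libraries. Figures were drawn with matplotlib.

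Members and lists were chosen with earlier results of these data known. Named genes were those past the test, the 15 per direction with the lowest p (a mean of at least 1 CPM, 1 sign in all sets, no predicted, Y-linked or Xist genes), up to 4 members per list, the mutated genes and the 8 most like Prss56. Rara, Rxrb, Apod, Fbln2, Gfra1, Col1a1, Cbln2, Foxd3, Meis1, Ddx3y and the cortical markers were named outside this rule after their values were seen. Promoters came from RefSeq on GRCm38.p6. A gene past the test and some other genes are not reported here.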

Additional observations from a re-analysis of the deposited data

Results flagged for a closer look

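The effect of genotype in orbital cortex differed from the mean of its medial and dorsal effects in 201 genes by the edgeR test between regions. Among the genes named here the difference on the log2 scale was positive for Lipg (1.87), Flrt2 (1.46), Nrip1 (1.33), the presynaptic scaffold gene Rims1 (1.04), Gfod1 (1.01) and Meis2 (0.90). It was negative for Zpld1 (-6.74), Krt19 (-2.26), Stra6 (-1.98), Tmem119 (-1.68), Crabp2 (-1.62), Cd68 (-1.12), Anxa5 (-1.05), Olfml3 (-1.03), Cd82 (-1.01) and the radial glia gene Fabp7 (-0.76). Zpld1 was at or below 0.457 CPM in all 12 medial and dorsal libraries, so its value rests on the orbital libraries. The calls depend on which library is left out, as given with the regional comparison. No group has more than 3 libraries, so no library was tested as an outlier.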

How the results depend on the processing

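Against 7 calls (5 higher, 2 lower), edgeR with other settings called 14 with a replicate block (7 lower), 2 on the 6 orbital libraries alone (2 higher, 0 lower), 3 there with the block (2 higher, 1 lower), 122 without a filter (72 and 50), 3 without the title prefix (3 and 0), 17 with sex as a covariate (10 and 7), 3 at a threshold of 0.01, 5 with RLE size factors (1 lower), 5 on autosomal genes (1 lower), 10 with the length trend removed (8 higher) and 7 in RXR-titled libraries (3 and 4). DESeq2 called 430 (219 and 211) and limma-voom 12 (5 lower). On the 6 orbital libraries alone 1328 genes had an unadjusted p under 0.05. Single omissions gave 3 to 8 calls, 3 to 4 higher and 0 to 4 lower. The difference between regions, 201 genes, became 132 with RLE size factors (69 lower), 1620 without a filter (1027 and 593) and 0 to 687 with single omissions (0 to 384 higher, 0 to 303 lower). Gm6356 and Gm10704 passed in all 18 alternatives run; Prss56 passed in 9 (adjusted p 4.49e-08 to 0.360), Tenm4 in 6 (2.06e-05 to 0.548), Gm10340 in 15 and Gm3373 in 10. With the length trend removed, Ncor1 (-0.0154), Cux1 (-0.094) and Dlgap1 (-0.0016) turned negative; the cause was not tested. Single omissions changed the sign of 2 to 6 of 40 list medians, the olfactory bulb list going furthest (-0.29 without dKO replicate 3). The correlation of same-numbered libraries, as deviations from their group means, was 0.226, 0.03 and 0.284, against -0.282 to 0.095 for libraries of different numbers. It was highest within the number for replicates 1 and 3, whereas control 2 correlated best with dKO 1 (0.095). The main fit did not pair libraries by number, and the calls with a replicate block are given above. Depth limits Prss56, whose dKO level rests on 15 fragments in all.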
